A study of Bos taurus with 18 samples.

Results

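Immortalized bovine fibroblasts of a Simmental-like line were compared with primary fibroblasts labelled with the same breed, 3 RNA sequencing libraries against 3, which are 6 of the 18 libraries of the series. The immortalized libraries come from the line HUN-BF-13, whose table columns are named BF-13, and the primary ones from PBF-13, whose columns are named BDF-20-3B-4. The libraries were chosen by these labels alone. No edited gene, transgene or drug is named for either group, and by the series title the immortalized cells arose spontaneously in long culture. The other libraries of the series are 3 labelled senescent (Sn-BF-13, columns BDF-20-MultiXray-Ctrl), whose levels are given beside some genes with no test, and 9 of a Holstein-like line, not used here. The age and body site of the animals are not given. Since the column names differ between stages, a change with stage cannot be told apart from a difference between named cultures, animals or body sites. The immortalized group is 1 line, and the labels call the replicates biological without naming separate cultures, so p-values measure only the spread between these libraries.

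Fibroblasts are the connective tissue cells that build and remodel the extracellular matrix. They keep a memory of the body site they came from, held in HOX and other developmental transcription factors. In culture, normal fibroblasts stop dividing after a limited number of doublings, when inhibitors of cyclin-dependent kinases such as CDKN1A and CDKN2A block the cell cycle through the RB pathway. Immortalized cells have passed that limit, and they can differ from their source in growth control, in metabolism and in the matrix they make.

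Of 24596 genes in the table, 12609 passed the filter on low counts and were tested, and 4699 (37.3%) had an adjusted p under 0.05 by edgeR's quasi-likelihood test. Of these, 2344 (18.6%) were higher and 2355 (18.7%) lower in immortalized libraries, and the groups of 3 did not overlap for 7143 genes (56.7%). Most genes named below were chosen among those called, so groups that do not overlap in them are no further support. The called genes beyond 2-fold numbered 1562 higher and 1411 lower, and those beyond 16-fold 367 higher and 228 lower. Levels are CPM, counts scaled to library size with edgeR's TMM factors, given in the order of libraries 1, 2 and 3. Changes are log2 values of immortalized over primary with a standard error derived from that test. Where 1 group stood near 0, this error can be smaller than counting error alone, so it overstates the precision there. Every adjusted p is from the same test with Benjamini-Hochberg adjustment over all genes tested. The immortalized libraries held 18.2 to 20.1 M counts and the primary ones 18.4 to 23.2 M (M, mega).

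The 3 immortalized libraries lay close together and the 3 primary ones did not. The median SD of a gene's log2 level was 0.127 in immortalized and 0.374 in primary libraries. Primary library 1 stood apart along gene length: matched genes were ranked by span and divided into 3539 short, 3539 middle and 3539 long ones, and its median deviation from the primary mean was 0.28 for short and -0.31 for long genes, against -0.24 and 0.29 in primary library 2. The median change was -0.25 for short and 0.26 for long genes, -0.08 and 0.15 without primary library 1, and -0.32 and 0.48 without primary library 2. Calls depended on the spread of these libraries: 6884 and 6294 genes passed without primary library 1 or 2, 3220 without primary library 3, and 2863, 2699 and 2990 without immortalized library 1, 2 or 3. Counts called in the gene lists below are to be read beside the shares of all tested genes, 18.6% higher and 18.7% lower. For each list, the range in brackets gives the count over these 6 fits. Its low end comes from a fit without primary library 3 or an immortalized library and its high end from one without primary library 1 or 2. Scaling by total counts moved the median of all genes by 0.30 and the calls to 3305 higher and 1531 lower (68.3% higher, against 49.9%). Genes with values given below kept their call in every one of these fits and under all scalings, filters and tools tried in which they were tested, unless stated. Separate stricter tests, a minimum of 2-fold and a replicate block, dropped more calls.

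**Figure D1:**
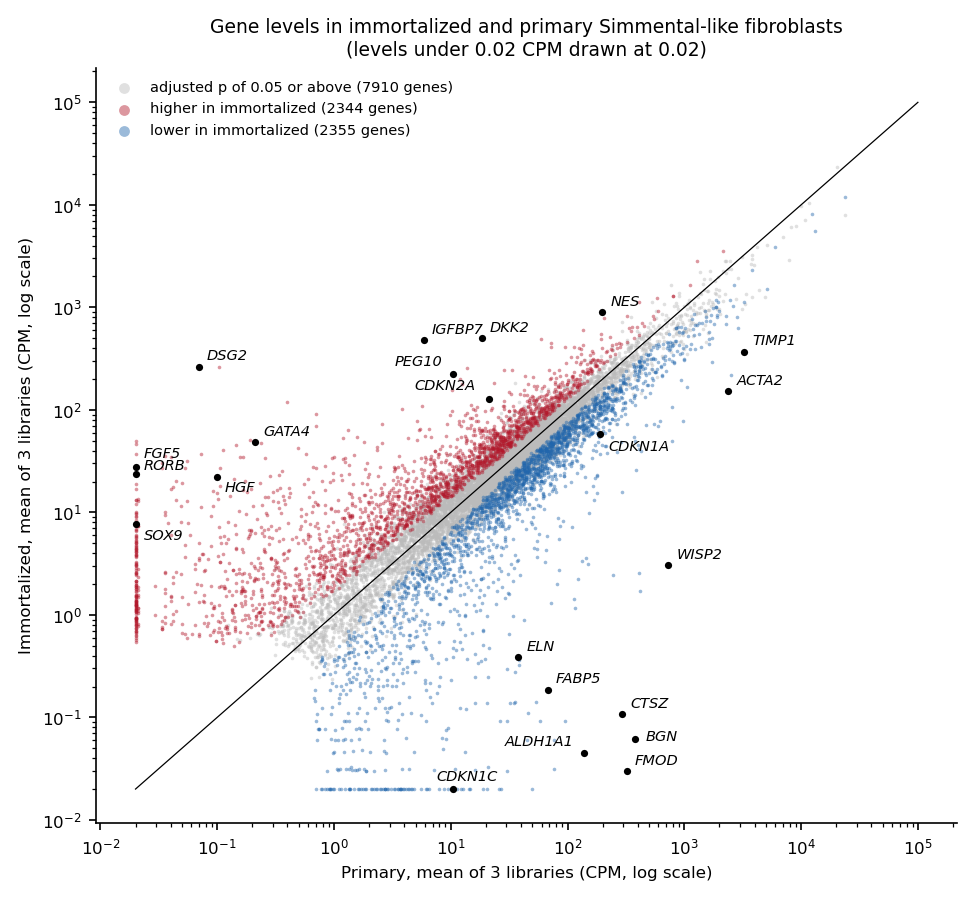
Mean level of each tested gene in the 3 immortalized (vertical axis) and 3 primary libraries (horizontal axis), both in CPM on a log scale; the line marks equal levels. The 2344 genes called higher in immortalized libraries lie above the line and the 2355 called lower lie below it, with DSG2, RORB and FGF5 at the upper left and FMOD, BGN and CTSZ at the lower right.

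Both groups carried the transcripts of fibroblasts. The 10 defining fibroblast markers summed to 47100 to 51900 CPM in immortalized and 62300 to 66000 CPM in primary libraries. The collagen genes COL1A1 and COL1A2, which encode the chains of type I collagen, did not pass (0.23 ± 0.20, adjusted p = 0.379, and -0.02 ± 0.31, adjusted p = 0.96). Of 14 tested genes in a wider fibroblast list, 2 rose (1 to 2) and 8 fell (3 to 9), with a median change of -0.95 against -0.0015 for all tested genes. The proteoglycan gene DCN stood at 651, 696 and 735 CPM in immortalized libraries, against 2873, 1712 and 2184 CPM in primary ones (-1.70 ± 0.22, adjusted p = 0.00171). PDGFRA, a receptor for platelet-derived growth factor that marks connective tissue cells, stood at 250.4, 233 and 219.8 CPM in immortalized and 469, 706 and 556 CPM in primary libraries (-1.30 ± 0.18). In both genes every immortalized library lay below every primary one, and groups did not overlap for 56.7% of all tested genes. FAP, a surface protease of activated fibroblasts, went the other way, with 57.9, 53.8 and 51.8 CPM in immortalized and 25.3, 30.02 and 29 CPM in primary libraries (0.96 ± 0.13). The intermediate filament gene VIM fell by 1.00 on the log2 scale with all 6 libraries (adjusted p = 0.0195), but its adjusted p was up to 0.093 when 1 library was left out, and it did not pass without primary library 3 or without any 1 immortalized library.

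The defining markers of endothelial, fat and skeletal muscle cells were low in both groups. The 7 markers of pericytes and smooth muscle were higher, at 161 to 182 CPM in immortalized and 128 to 195 CPM in primary libraries. The 8 endothelial markers summed to 4.2 to 4.84 CPM in immortalized and 3.27 to 4.83 CPM in primary libraries. The 2 defining adipocyte markers in the table summed to 1.52 to 2.15 CPM in immortalized and 1.37 to 2.39 CPM in primary libraries. A wider adipocyte list, with 7 genes in the table, summed to 22.9 to 28.0 CPM in immortalized and 37.9 to 62.3 CPM in primary libraries. Skeletal muscle markers reached at most 0.0922 CPM in an immortalized library, with MYOD1, MYOG, PAX7 and MYH2 at 0. The 8 immune markers summed to 2.83 to 5.49 CPM in immortalized libraries and to 83.4 to 103 CPM in primary ones. That gap lay in LAPTM5, a lysosomal membrane gene of blood cells, and CD14, a co-receptor for bacterial lipopolysaccharide. LAPTM5 had 2 counts in the 3 immortalized libraries together, against 81.2, 68.2 and 80.3 CPM in primary ones, and CD14 stood at 0.0978, 0.135 and 0.184 CPM in immortalized and 18.8, 13.8 and 16.3 CPM in primary libraries. The defining white cell genes PTPRC and CD3E stayed under 0.2 CPM in all 6 libraries and TYROBP was at 0. CSF1R, the receptor of macrophages for their growth factor, was higher in immortalized libraries (1.17, 1.03 and 1.52 CPM, against 0.188, 0.177 and 0.229 CPM in primary ones). In bulk RNA, fewer cells of a type and less RNA per cell cannot be told apart. Among epithelial markers ESRP1, a splicing regulator of epithelial cells, rose to 17.7, 17.3 and 16 CPM in immortalized libraries, against 0.314, 0.265 and 0 CPM in primary ones (6.40 ± 0.57, adjusted p = 0.000429), while EPCAM stayed at or under 0.0978 CPM and GRHL2 was at 0.

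In the marker lists, few genes were above the filter. Of 5 immune markers tested 1 rose (1 in each) and 2 fell (2 in each), of 5 adipocyte markers 1 rose (1 in each) and 2 fell (2 to 3), and of 8 pericyte and smooth muscle markers 1 rose (1 in each) and 3 fell (2 to 5). Of 3 melanocyte and Schwann cell markers 2 rose (2 to 3), and of 3 neural markers 2 rose (2 in each) and 1 fell (1 in each). Of 2 keratinocyte and epithelial markers tested, ESRP1 passed. None of 3 endothelial markers and not the 1 skeletal muscle marker tested passed with edgeR, with DESeq2 or with limma-voom, and 0 had an unadjusted p under 0.05. Among endothelial markers 1, the receptor gene TEK, passed without primary library 1 (1.86, adjusted p = 0.013), 1 of 8 rose with no filter and 2 of 5 in the fit of 9 libraries.

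The largest changes were genes present in 1 group and near 0 in the other. FAM169A stood at 30.4, 28.2 and 24.2 CPM in immortalized libraries and had no counts in the primary ones, at least 514-fold higher if the primary group as a whole held 3 counts, the floor used for every such bound. The nuclear receptor gene RORB was at least 437-fold higher, CNKSR2, a scaffold of RAS signalling, at least 353-fold, RTN1, a reticulon of the endoplasmic reticulum, at least 315-fold, SORBS2, an adaptor of actin fibres, at least 228-fold, and the protocadherin gene PCDH10 at least 189-fold. KIR2DS1, named in the table after a killer cell receptor, was at 34.5, 34.7 and 37.1 CPM in immortalized libraries, against 2 counts in primary ones, a ratio of 992 (95% counting interval 274 to 8196). In the other direction FAM180A had no counts in immortalized libraries and 36.2, 56.9 and 54.6 CPM in primary ones (at least 1080-fold lower). NUDT16, a nucleoside diphosphatase, was at least 413-fold lower and the kinase gene CAMK1G at least 392-fold lower. These bounds and ratios cover counting error only.

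By difference in level rather than ratio, other genes led. ACTN1, which crosslinks actin, rose to 2668, 2885 and 3014 CPM in immortalized libraries, against 1309, 1218 and 1291 CPM in primary ones (1.17 ± 0.14). SPP1, the secreted matrix protein osteopontin, rose to 1015, 1129 and 1241 CPM, against 486, 328 and 417 CPM in primary libraries (1.46 ± 0.19). NES, the intermediate filament nestin, stood at 901, 911 and 877 CPM in immortalized and 205, 189 and 199 CPM in primary libraries (2.18 ± 0.12). CREB3L1, a transcription factor of the secretory pathway, and PTK7, a receptor of planar cell polarity, also rose (1.36 ± 0.12 and 1.94 ± 0.12). Among genes that fell, GSN, which severs actin filaments, stood at 195, 217 and 239 CPM in immortalized and 2839, 2103 and 2586 CPM in primary libraries (-3.53 ± 0.19). MFGE8, a bridging protein for the uptake of dead cells, stood at 586, 629 and 661 CPM, against 1842, 3585 and 3272 CPM in primary libraries (-2.21 ± 0.27). The groups did not overlap in any of these genes, which were chosen among called ones, nor in 56.7% of all tested genes.

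Genes of body position changed in both directions. Of 26 tested HOX genes, 5 rose (4 to 7) and 8 fell (4 to 10), and of 47 other position factors 18 rose (14 to 19) and 21 fell (14 to 22). The shares called were 50% and 83%, against 37.3% of all genes (18.6% higher and 18.7% lower). The medians were -0.34 and -0.28. Under total-count scaling they were -0.02 and 0.02, and without primary library 1 that of the HOX genes was -0.12. HOX genes that rose included HOXB9 (20.3, 21.7 and 19.6 CPM in immortalized, 0.565, 1.95 and 1.03 CPM in primary libraries, 4.08 ± 0.41). HOXD13, a gene of the limb end, rose to 6.4, 6.32 and 6 CPM, against 0.251, 0.133 and 0.344 CPM in primary libraries (4.69 ± 0.32, adjusted p = 0.000151), and HOXA13 and HOXA11 rose by 3.23 ± 0.41 and 1.72 ± 0.31. HOXC6 fell to 16.9, 19.1 and 21.3 CPM in immortalized libraries, against 62.5, 43.6 and 45 CPM in primary ones (-1.40 ± 0.20), and HOXB2 and HOXA10 fell as well (-1.20 ± 0.17 and -1.12 ± 0.16). The HOX genes named here were chosen among called ones and did not overlap between the groups, which held for 56.7% of all tested genes.

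GATA4, a factor of heart and trunk mesoderm, stood at 48.6, 47.5 and 48.9 CPM in immortalized libraries, against 0.126, 0.221 and 0.287 CPM in primary ones (7.78 ± 0.25, adjusted p = 2.27e-05). TFAP2B, a factor of neural crest and limb, had 12, 12.4 and 14.8 CPM in immortalized libraries and no counts in primary ones (at least 244-fold higher). NKX3-2, a repressor of cartilage maturation, had 2.69, 3.18 and 3.55 CPM in immortalized libraries and none in primary ones (at least 58.8-fold). SOX9, the master factor of cartilage, had 7.43, 7.35 and 8.49 CPM in immortalized libraries, against 1 count in primary ones, a ratio of 434 (95% counting interval 77.6 to 17190). The neural crest factor SOX10 had a ratio of 88.6 (95% counting interval 15.6 to 3533). These 5 genes were at or near 0 in all 3 primary libraries.

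Other position factors were lower in the immortalized libraries. BARX1, a factor of the jaw and stomach wall, had no counts in immortalized libraries, against 14.8, 6.41 and 9.18 CPM in primary ones (at least 208-fold lower). PRRX2, a factor of limb and face mesenchyme, stood at 145, 168 and 188 CPM in immortalized and 1557, 660.2 and 966 CPM in primary libraries (-2.67 ± 0.34). TFAP2C stood at 0.196, 0.179 and 0.0922 CPM in immortalized and 2.57, 2.43 and 2.12 CPM in primary libraries (-3.88 ± 0.32), so that 2 members of the AP-2 family moved in opposite directions. SP7, a factor of bone-forming cells, had 1 count in immortalized libraries, against 1.82, 2.39 and 2.64 CPM in primary ones, where the ratio of primary over immortalized was 148 (95% counting interval 26.2 to 5911).

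**Figure D2:**
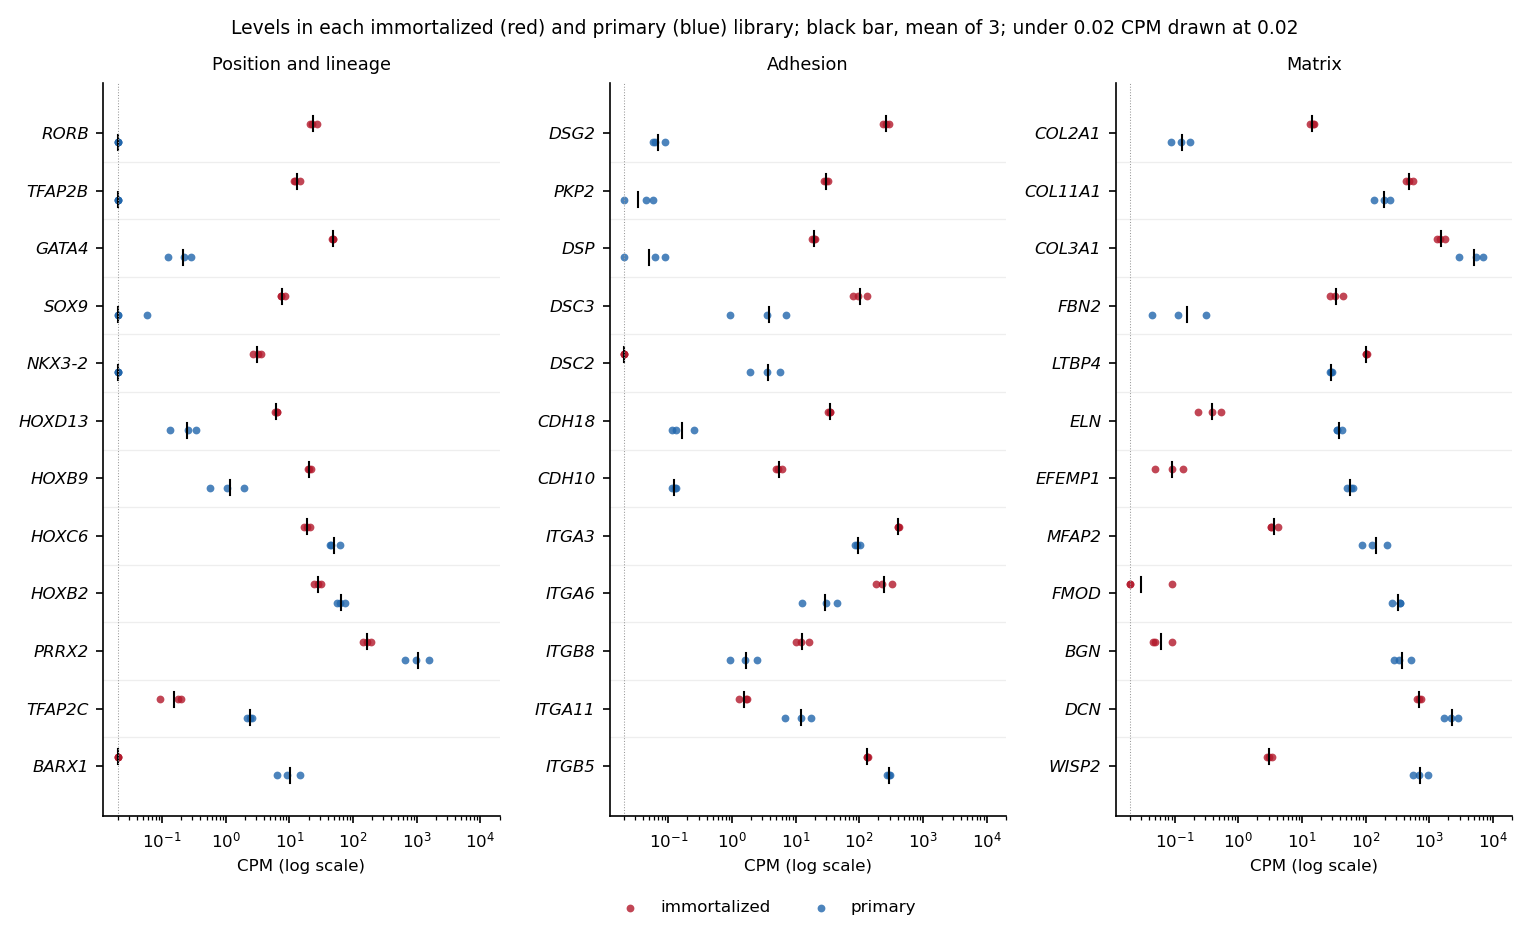
Level in each library (points, CPM on a log scale) of genes of position and lineage, of adhesion and of the matrix, with immortalized libraries above primary ones in each pair and black bars at the means of 3. In all 36 genes the 3 immortalized points lie apart from the 3 primary points. The genes shown were chosen among called ones, and the groups did not overlap for 56.7% of all tested genes.

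Cell-cell adhesion genes of the desmosome, a junction that anchors intermediate filaments and is typical of epithelia and heart, changed in every gene tested. Of 8 tested desmosome genes, 6 rose (5 to 7) and 2 fell (1 to 2), with a median change of 4.15. DSG2, a desmosomal cadherin, stood at 297, 260.1 and 237 CPM in immortalized libraries, against 0.0628, 0.0884 and 0.0574 CPM in primary ones (11.74 ± 0.24, adjusted p = 7.48e-06). At primary levels this near 0, that standard error is smaller than counting error alone. The plaque genes PKP2 and DSP rose to 28.1, 29.5 and 32.4 CPM and 20.3, 19.1 and 18.1 CPM in immortalized libraries, against 2 and 3 counts in the primary ones, ratios of 840.4 (95% counting interval 232 to 6944) and 357 (95% counting interval 122 to 1734). DSC3, another desmosomal cadherin, rose to 134, 95.9 and 78.9 CPM, against 0.942, 6.94 and 3.56 CPM in primary libraries (4.73 ± 0.67). Its relative DSC2 had no counts in immortalized libraries and 1.95, 5.62 and 3.61 CPM in primary ones (at least 84.8-fold lower). Beside these, the defining keratinocyte genes KRT5 and KRT14 stayed under 0.2 CPM in all 6 libraries.

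Of 9 classical cadherins tested, 4 rose (2 to 5) and 2 fell (0 to 4). CDH18 stood at 35.1, 35.2 and 32.8 CPM in immortalized and 0.251, 0.133 and 0.115 CPM in primary libraries (7.68 ± 0.27), and CDH10 at 5.38, 6.05 and 4.93 CPM in immortalized and 0.126, 0.133 and 0.115 CPM in primary libraries (5.38 ± 0.27). Integrins, which bind cells to matrix, went both ways: 4 of 16 rose (3 to 6) and 4 fell (3 to 5). That is 50% called, against 37.3% of all genes, which also split between both directions (18.6% higher and 18.7% lower). The laminin receptor subunits ITGA3 and ITGA6 rose, with 419, 399 and 411 CPM and 324, 226 and 182 CPM in immortalized libraries, against 93.1, 104 and 85.9 CPM and 12.5, 44 and 29.5 CPM in primary ones (2.12 ± 0.12 and 3.09 ± 0.49). ITGB8, which activates latent TGF-beta, rose by 2.92 ± 0.38. The collagen receptor subunit ITGA11 fell (-2.93 ± 0.39), as did the fibronectin and vitronectin receptor subunits ITGA5 (-0.84 ± 0.11) and ITGB5 (-1.12 ± 0.11).

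In the matrix, small leucine-rich proteoglycans, which coat collagen fibrils and set their width, fell more often than they rose. Of 11 tested, 8 fell (6 to 9) and 1 rose (0 to 2), with a median of -1.34. FMOD, or fibromodulin, had 2 counts in the 3 immortalized libraries together, against 256, 351 and 354 CPM in primary ones, where the ratio of primary over immortalized was 10470 (95% counting interval 2898 to 86460). BGN, or biglycan, stood at 0.0489, 0.0897 and 0.0461 CPM in immortalized and 516, 283 and 331 CPM in primary libraries (-12.43 ± 0.44, adjusted p = 3.08e-05). ASPN, or asporin, stood at 24.3, 23.3 and 22 CPM, against 146, 194 and 199.6 CPM in primary libraries (-2.96 ± 0.17). In all 3 genes, which were chosen among called ones, the lowest primary library lay above the highest immortalized one. The groups did not overlap for 56.7% of all tested genes.

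Elastic fibre genes also fell more often than they rose: 9 of 19 were lower (7 to 10) and 4 higher (2 to 5). ELN, which encodes elastin, stood at 0.391, 0.538 and 0.231 CPM in immortalized libraries, against 42.8, 36.1 and 35.1 CPM in primary ones (-6.59 ± 0.30, adjusted p = 5.44e-05). Its partners EFEMP1, a fibulin, and MFAP2 and MFAP4, proteins of the microfibril, fell as well (-9.18 ± 0.29, -5.33 ± 0.41 and -5.48 ± 0.42). FBN2, the fibrillin of embryonic tissue, rose to 44.8, 32.6 and 27.3 CPM in immortalized libraries, against 0.314, 0.0442 and 0.115 CPM in primary ones (7.85 ± 0.51). LTBP4, which holds latent TGF-beta in the fibre, stood at 102, 101 and 105 CPM in immortalized and 29.1, 28 and 29.3 CPM in primary libraries (1.83 ± 0.12).

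Collagen genes changed in both directions. Of 26 tested genes of fibrillar collagens and their crosslinking enzymes, 8 rose (4 to 11) and 6 fell (3 to 9). This was 53.8% called, against 37.3% of all genes. COL2A1, the main collagen of cartilage, stood at 15, 13.3 and 15.3 CPM in immortalized libraries, against 0.126, 0.0884 and 0.172 CPM in primary ones (6.78 ± 0.28). Its fibril partners COL11A1 and COL11A2 rose by 1.35 ± 0.23 and 3.66 ± 0.46. COL3A1, the collagen of loose connective tissue, fell to 1744, 1503 and 1326 CPM in immortalized libraries, against 2899.5, 6966 and 5377 CPM in primary ones (-1.74 ± 0.34, adjusted p = 0.00877). Of 16 collagens outside the fibrillar list 5 rose (5 to 7) and 2 fell (1 to 6), 43.8% called. In the list of cartilage and bone markers, which can share genes with those above, 4 of 6 tested rose and 1 fell, the same counts as in each fit without 1 library. ACAN, the large proteoglycan of cartilage, stood at 32.3, 27.3 and 23.8 CPM in immortalized and 0.565, 0.973 and 0.459 CPM in primary libraries (5.34 ± 0.32).

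In the basement membrane list 5 of 13 genes rose (4 to 6) and 3 fell (2 to 4), 61.5% called against 37.3% of all genes. The laminin chain gene LAMA2 rose by 3.22 ± 0.27, and LAMA3 and LAMB3 fell (-2.47 ± 0.21 and -3.98 ± 0.63). Of 26 matricellular and large matrix proteins, 13 fell (11 to 15) and 4 rose (2 to 4). WISP2, of the CCN family of matrix signals, stood at 2.79, 3.36 and 3 CPM in immortalized and 942, 551 and 690.3 CPM in primary libraries (-7.90 ± 0.29, adjusted p = 3.51e-05). NOV, of the same family, stood at 26.9, 24.8 and 25.7 CPM, against 364, 409 and 392 CPM in primary libraries (-3.91 ± 0.12), and POSTN, or periostin, and TGFBI fell by 4.23 and 5.40 on the log2 scale.

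Among matrix proteases and their inhibitors, 12 of 23 fell (8 to 16) and 2 rose (1 to 3). TIMP1, an inhibitor of matrix metalloproteinases, stood at 323, 367 and 419 CPM in immortalized and 6079.6, 1508 and 2163 CPM in primary libraries (-3.14 ± 0.55, adjusted p = 0.00603). Primary library 1 was the highest, and the other 2 primary libraries still lay above every immortalized one. Groups did not overlap for 56.7% of all tested genes. The metalloproteinase gene MMP23B stood at 0.196, 0.135 and 0.0922 CPM, against 65, 41.4 and 53.5 CPM in primary libraries (-8.51 ± 0.34), and ADAMTS5, which cuts aggrecan, fell by 4.24 on the log2 scale. PLAU, the urokinase protease, rose by 0.74 ± 0.12.

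Contractile genes, which mark myofibroblasts, fell in 8 of 20 cases (4 to 10) and rose in 3 (2 to 4). ACTA2, smooth muscle actin, stood at 134, 158 and 167 CPM in immortalized libraries, against 3208, 1743 and 2158 CPM in primary ones (-3.95 ± 0.28, adjusted p = 0.000189). CNN1, or calponin, stood at 41.7, 41.2 and 42.8 CPM, against 538, 312 and 377 CPM in primary libraries (-3.29 ± 0.23), and LMOD1, which nucleates actin in smooth muscle, fell by 3.88 on the log2 scale. MYLK, the kinase of the myosin light chain, rose by 1.42 ± 0.25. The 7 defining markers of pericytes and smooth muscle summed to 161 to 182 CPM in immortalized and 128 to 195 CPM in primary libraries, although MCAM among them rose by 3.62 on the log2 scale. The wider list of 12 such markers summed to 1579 to 1867 CPM in immortalized and 4316 to 7391 CPM in primary libraries. Of its 8 tested genes 1 rose and 3 fell. The part of these cell types in the changes was not tested.

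Inhibitors of cyclin-dependent kinases changed in both directions. CDKN2A, which encodes p16 and an alternative reading frame product, stood at 115, 131 and 138 CPM in immortalized libraries, against 33, 12.1 and 18.7 CPM in primary ones (2.59 ± 0.37, adjusted p = 0.00262). Its neighbour CDKN2B stood at 92, 88.3 and 87.9 CPM, against 12.6, 18.6 and 18.2 CPM in primary libraries (2.44 ± 0.19). CDKN1A, which encodes p21, stood at 61.2, 57.9 and 54.5 CPM in immortalized and 165, 197 and 209.8 CPM in primary libraries (-1.72 ± 0.14, adjusted p = 0.000271). The groups were apart in all 3 genes, as in 56.7% of all tested genes, with these INK4 genes higher and p21 lower in immortalized libraries.

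The imprinted inhibitor gene CDKN1C, which encodes p57, had no counts in immortalized libraries, against 15.4, 6.72 and 9.01 CPM in primary ones (at least 213-fold lower). CDKN2D, the p19 member of the INK4 family, fell to 7.77, 8.97 and 8.85 CPM in immortalized libraries, against 32.4, 19.9 and 23.5 CPM in primary ones (-1.56 ± 0.22). CCND2, cyclin D2, which drives the kinases these inhibitors block, rose to 58.1, 59.6 and 68.8 CPM, against 19.2, 13.4 and 14.5 CPM in primary libraries (1.99 ± 0.19). Across the INK4 and RB list 6 of 25 genes rose (5 to 11) and 3 fell (1 to 5). In the list of CIP and KIP inhibitors and damage response targets 9 of 29 fell (7 to 10) and 2 rose (2 to 4). The shares called in these lists, 36% and 37.9%, were near the 37.3% of all genes. BAX, which opens mitochondria in cell death, fell to 30.7, 35.2 and 36.6 CPM in immortalized libraries, against 251, 104 and 135 CPM in primary ones (-2.26 ± 0.34), while PLK2 and GADD45A, stress-induced genes, rose by 3.06 ± 0.19 and 1.22 ± 0.11.

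Few DNA replication genes were called. Of 34 DNA replication genes 5 rose (2 to 7) and 1 fell (0 to 5), and of 33 mitosis genes 9 rose (4 to 12) and 3 fell (0 to 4). For DNA replication genes the share called was 17.6%, against 37.3% of all genes. For mitosis genes it was 36.4%, near that of all genes. MCM2, of the replicative helicase, stood at 356, 397 and 405 CPM in immortalized and 253, 223 and 238 CPM in primary libraries (0.70 ± 0.12). BUB1B, of the spindle checkpoint, stood at 214, 217 and 214 CPM, against 77.2, 94.5 and 86.4 CPM in primary libraries (1.32 ± 0.12), and the mitotic factor FOXM1 rose by 0.91 ± 0.13. MKI67, the marker of cycling cells, stood at 436, 367 and 338 CPM in immortalized and 120.4, 372 and 247 CPM in primary libraries and did not pass (0.63 ± 0.39, adjusted p = 0.241). It passed without primary library 2 (1.03, adjusted p = 0.042), its change was 0.30 (adjusted p = 0.229) without primary library 1, and the groups overlapped.

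MYC, which drives growth and ribosome production, stood at 186, 211 and 228 CPM in immortalized and 135, 89.4 and 105 CPM in primary libraries (0.93 ± 0.18, adjusted p = 0.00943), and its antagonist MXD4 fell (-1.09 ± 0.16). Of 12 genes of the MYC network 3 rose (1 to 4) and 3 fell (1 to 5). For TERT, which encodes the catalytic subunit of telomerase, there were 2 counts in immortalized library 1 and none in the other 5 libraries, under the filter, so no fold is given. Of 16 telomere genes tested 2 rose (1 to 7) and 2 fell (0 to 4), 25% called against 37.3% of all genes. TERF2, which protects chromosome ends, stood at 40.8, 42.6 and 44.4 CPM in immortalized and 18.4, 26.5 and 23.6 CPM in primary libraries (0.90 ± 0.17). The lamina gene LMNB1, which is lost in many senescent cells, did not pass (0.12 ± 0.25, adjusted p = 0.729), and its change was -0.12 when primary library 1 was left out. LMNA, of the A-type lamina, fell to 1026, 1143 and 1204 CPM in immortalized libraries, against 4405, 2385 and 2861 CPM in primary ones (-1.52 ± 0.26).

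**Figure D3:**
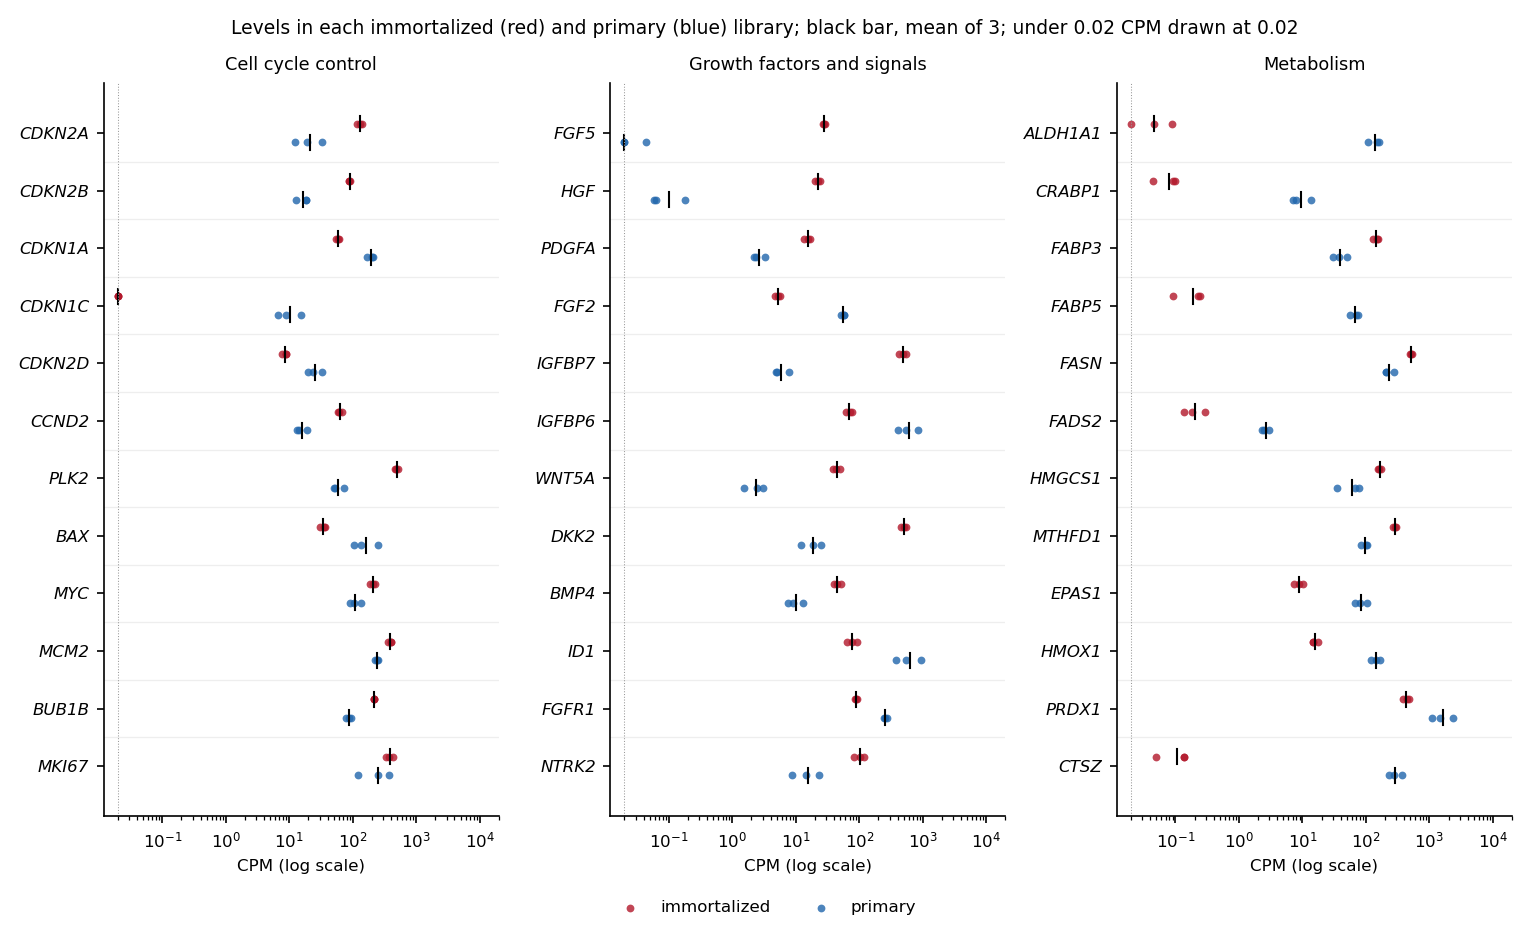
Level in each library (points, CPM on a log scale) of genes of cell cycle control, of growth factors and signals and of metabolism, with immortalized libraries above primary ones in each pair and black bars at the means of 3. Of the genes shown MKI67 alone has overlapping groups and did not pass the test. Most of the genes shown were chosen among called ones, and the groups did not overlap for 56.7% of all tested genes.

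Growth factor genes changed in both directions. Of 21 tested 6 rose (5 to 10) and 6 fell (5 to 8). FGF5, a fibroblast growth factor, had 26.9, 28.9 and 27.9 CPM in immortalized libraries, against 1 count in primary ones, a ratio of 1564 (95% counting interval 280.4 to 61820). HGF, the ligand of the MET receptor, stood at 23.9, 22.4 and 19.8 CPM in immortalized and 0.0628, 0.177 and 0.0574 CPM in primary libraries (7.62 ± 0.35, adjusted p = 5.22e-05). PDGFA, a ligand of PDGFRA, stood at 13.5, 15.4 and 16.8 CPM, against 3.26, 2.17 and 2.35 CPM in primary libraries (2.56 ± 0.23). FGF2 fell to 5.67, 4.75 and 5.26 CPM in immortalized libraries, against 51.5, 58 and 56.3 CPM in primary ones (-3.40 ± 0.15), and FGF18 fell as well (-3.56 ± 0.40).

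Of 23 growth factor receptors 6 rose (5 to 9) and 5 fell (4 to 9), 47.8% called against 37.3% of all genes. NTRK2, the receptor of brain-derived neurotrophic factor, rose to 120.3, 101 and 82.6 CPM in immortalized libraries, against 8.6, 23.5 and 14.5 CPM in primary ones (2.70 ± 0.38). EPHA2, an ephrin receptor, and TYRO3, a receptor of GAS6, rose by 1.23 ± 0.12 and 1.06 ± 0.13. FGFR1 fell to 87, 86.3 and 93.4 CPM in immortalized libraries, against 269, 246 and 256 CPM in primary ones (-1.53 ± 0.11), and FLT1, a receptor of vascular endothelial growth factor, fell by 4.28 on the log2 scale, beside endothelial markers that stayed under 5 CPM in sum.

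The insulin-like growth factor system held 6 genes that rose (6 in each) and 5 that fell (4 to 8) of 15. Its binding proteins, which hold the ligand outside the cell, split: IGFBP7 stood at 420.5, 485 and 534 CPM in immortalized libraries, against 7.78, 5 and 4.82 CPM in primary ones (6.36 ± 0.27, adjusted p = 4.1e-05). IGFBP6 stood at 60.6, 71.5 and 77.6 CPM, against 843, 409 and 547 CPM in primary libraries (-3.10 ± 0.30), and IGFBP3 and IGFBP4 fell too (-2.27 ± 0.33 and -1.77 ± 0.15). The RNA-binding genes IGF2BP1 and IGF2BP3, active in the embryo, rose by 4.71 ± 0.27 and 3.30 ± 0.14.

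Wnt genes rose in 11 of 29 cases (10 to 13), against 18.6% of all genes, and 3 fell (3 to 7). WNT5A, a ligand of the branch without beta-catenin, stood at 49.8, 42.7 and 39.1 CPM in immortalized and 1.51, 3.05 and 2.41 CPM in primary libraries (4.22 ± 0.29). DKK2, which binds the co-receptors of the canonical branch, stood at 542, 501 and 456 CPM, against 11.9, 24.8 and 18.4 CPM in primary libraries (4.76 ± 0.31). The receptor FZD6 rose by 2.67 ± 0.45, and WNT2 fell (-3.81 ± 0.44). In the Notch system 4 of 13 rose (1 to 4) and 2 fell (1 to 4). The ligand gene DLL1 stood at 4.74, 5.25 and 6.46 CPM in immortalized and 1.76, 1.55 and 1.66 CPM in primary libraries (1.73 ± 0.21). In the TGF-beta and BMP system 9 of 37 rose (3 to 13) and 12 fell (7 to 17). The ligand BMP4 rose to 39.6, 44.1 and 50.8 CPM, against 13.1, 7.47 and 9.12 CPM in primary libraries (2.18 ± 0.24), while ID1, a direct target of BMP signals, fell to 64.5, 77.6 and 90.9 CPM, against 920.4, 381 and 551 CPM in primary libraries (-2.99 ± 0.36). ACVRL1, a receptor of this family, stood at 0.0489, 0.135 and 0.0922 CPM in immortalized and 32.7, 27.6 and 29.8 CPM in primary libraries (-8.24 ± 0.29).

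Of 13 imprinted genes, which are read from 1 parental copy, 4 rose (3 to 5) and 6 fell (4 to 7). PEG10, a retrotransposon-derived gene of the placenta, stood at 282, 215 and 170.2 CPM in immortalized and 3.14, 20.2 and 7.74 CPM in primary libraries (4.41 ± 0.69). MAGEL2 rose by 3.91 ± 0.29, while its neighbour NDN, or necdin, fell (-2.63 ± 0.26). The growth suppressor DIRAS3 fell to 2.44, 2.91 and 2.95 CPM in immortalized libraries, against 74, 89.4 and 88.3 CPM in primary ones (-4.92 ± 0.17), and NNAT, or neuronatin, fell by 5.18 on the log2 scale.

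In metabolism, 11 of 17 genes of retinoid handling fell (10 to 12), against 18.7% of all genes, and 1 rose. Their median was -2.14, and it was -0.92 over 23 genes with no filter and -0.99 over 19 genes in the fit of 9 libraries. ALDH1A1, which makes retinoic acid, had 3 counts in the 3 immortalized libraries together, against 107, 148 and 160.2 CPM in primary ones, where the ratio of primary over immortalized was 3013 (95% counting interval 1031 to 14610). Its relative ALDH1A3 fell to 0.244, 0.404 and 0.323 CPM in immortalized libraries, against 11.7, 65.7 and 37.2 CPM in primary ones (-6.85 ± 0.79). The binding protein CRABP1 stood at 0.0978, 0.0448 and 0.0922 CPM, against 13.6, 7.21 and 7.86 CPM in primary libraries (-6.83 ± 0.46). RARB, a retinoic acid receptor that is its own target, had 2 counts in immortalized libraries, against 0.942, 2.7 and 1.84 CPM in primary ones. The genes named here were thus near 0 in the immortalized libraries. All 23 genes of the list summed to 418.6 to 462.8 CPM in immortalized and 901.7 to 1206 CPM in primary libraries.

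Lipid genes changed in both directions. Of 16 synthesis and desaturation genes 6 rose (4 to 8) and 5 fell (5 to 6). FASN, the fatty acid synthase, stood at 514, 488 and 528 CPM in immortalized and 281, 209 and 204 CPM in primary libraries (1.14 ± 0.16), and ACSS2, which turns acetate into acetyl-CoA, rose by 2.07 ± 0.25. The desaturase gene FADS2 fell to 0.293, 0.179 and 0.138 CPM, against 2.51, 3.01 and 2.35 CPM in primary libraries (-3.66 ± 0.32). Of 25 uptake, storage and oxidation genes 10 fell (7 to 12) and 5 rose (3 to 7). Fatty acid binding proteins went both ways: FABP3 rose to 129.7, 147 and 156 CPM in immortalized libraries, against 50.2, 30.3 and 37.9 CPM in primary ones (1.87 ± 0.21), and FABP5 fell to 0.244, 0.224 and 0.0922 CPM, against 69.7, 57.1 and 75.5 CPM in primary ones (-8.45 ± 0.31). FABP4, also a gene of fat cells, fell by 7.12 on the log2 scale. The 2 defining adipocyte markers in the table summed to at most 2.39 CPM. The wider adipocyte list, with 7 genes in the table, summed to 22.9 to 28.0 CPM in immortalized and 37.9 to 62.3 CPM in primary libraries.

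Sterol synthesis genes rose in 7 of 24 cases (4 to 10) and fell in 3 (1 to 5). The share called, 41.7%, was near that of all genes, as were those of the tricarboxylic acid cycle (39.1%) and of interferon response (40%) described below. HMGCS1, at the start of the pathway, stood at 176, 163 and 153 CPM in immortalized and 35.6, 78.3 and 67 CPM in primary libraries (1.44 ± 0.29, adjusted p = 0.0102). DHCR7, a late step, rose by 0.73 ± 0.13. SCAP, the sterol sensor that escorts SREBP factors, rose (0.86 ± 0.11), while SREBF1, which encodes one of them, fell (-0.81 ± 0.13).

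Of 25 glycolysis genes 6 fell (5 to 10) and 2 rose (1 to 3), and of 19 hypoxia genes 8 fell (5 to 8) and 4 rose (1 to 6). The shares called were 32% and 63.2%, against 37.3% of all genes. Both medians were below 0 (-0.28 and -0.12) and above it under total-count scaling (0.03 and 0.20). GPI, of upper glycolysis, stood at 309, 332 and 355 CPM in immortalized and 599.7, 694 and 742 CPM in primary libraries (-1.03 ± 0.14). SLC16A3, which exports lactate, stood at 0, 0.135 and 0.184 CPM, against 6.59, 4.42 and 5.79 CPM in primary libraries (-5.61 ± 0.56). EPAS1, which encodes the oxygen-sensing factor HIF-2 alpha, fell to 8.94, 10.2 and 7.38 CPM in immortalized libraries, against 68.3, 103 and 79.96 CPM in primary ones (-3.24 ± 0.22), and the prolyl hydroxylase EGLN3 by 4.59 on the log2 scale.

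The number of mitochondrial genes that fell depended on the libraries. Of 23 genes of the tricarboxylic acid cycle 8 fell (5 to 10) and 1 rose (1 to 2), with a median of -0.16 that turned to 0.14 under total-count scaling. FH, or fumarase, stood at 63.4, 72.2 and 76 CPM in immortalized and 190.4, 141 and 156 CPM in primary libraries (-1.20 ± 0.16). IDH1, a list member that acts in the cytosol, and IDH3B fell (-1.04 ± 0.11 and -0.90 ± 0.14), and SUCLG2 rose by 0.62 ± 0.11. Of 55 nuclear genes of oxidative phosphorylation 12 fell and 0 rose with edgeR, with a median of -0.61. The share called lower, 21.8%, was near the 18.7% of all genes. By DESeq2 19 fell and 0 rose, by limma-voom 11 fell and 0 rose, and 1 was higher at an unadjusted p under 0.05 with edgeR. Without primary library 1 the median was -0.28, with 17 lower and 2 higher genes, without primary library 2 it was -0.83 with 37 lower, and 3 to 6 were lower without any 1 of the other 4 libraries. Under total-count scaling it was -0.29. None of 6 mitochondrially encoded genes passed with edgeR or limma-voom, while 4 had an unadjusted p under 0.05 and 5 passed with DESeq2, all lower. Their median was -1.56. Without primary library 1 it was -0.50, with 3 genes lower, and without primary library 2 it was -1.95, with 6 lower. Short genes were as a class highest in primary library 1, as given above, and the part of that library in these medians was not tested beyond leaving it out. Of 19 genes of mitochondrial biogenesis and dynamics 1 rose (1 to 4) and 4 fell (1 to 7). PPARGC1B, a coactivator of mitochondrial genes, rose (1.86 ± 0.27). Its relative PPARGC1A stood at 2.2, 1.75 and 2.08 CPM in immortalized and 4.77, 3.1 and 3.33 CPM in primary libraries (-0.89 ± 0.25, adjusted p = 0.0313), but did not pass under total-count scaling, without primary library 3 or without any 1 immortalized library (adjusted p up to 0.134).

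Antioxidant genes fell in 15 of 30 cases (9 to 20), against 18.7% of all genes, and 1 rose, with a median of -0.91 (-0.60 under total-count scaling). PRDX1, a peroxiredoxin, stood at 384, 441 and 483 CPM in immortalized and 2352, 1099.9 and 1448 CPM in primary libraries (-1.91 ± 0.30). HMOX1, which breaks down heme, stood at 14.9, 14.9 and 17.5 CPM, against 169, 118 and 144 CPM in primary libraries (-3.19 ± 0.18), and the secreted peroxidase GPX3 fell by 4.45 on the log2 scale. PRDX4, the peroxiredoxin of the endoplasmic reticulum, was the one that rose (0.67 ± 0.13).

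Lysosome genes fell in 17 of 33 cases (13 to 20) and rose in 3 (1 to 4). CTSZ, a cathepsin protease, stood at 0.0489, 0.135 and 0.138 CPM in immortalized libraries, against 369.6, 229 and 278 CPM in primary ones (-11.32 ± 0.38, adjusted p = 2.27e-05). CTSS, a cathepsin of antigen-presenting cells, stood at 3.81, 3.36 and 2.77 CPM, against 53.4, 65.7 and 73.5 CPM in primary libraries (-4.27 ± 0.21), and GAA, which digests glycogen, fell (-2.41 ± 0.23). TFEB, the factor that switches on lysosomal genes, rose by 1.09 ± 0.16. Immune markers moved with these genes in the sums given above, and their part in the change was not tested.

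Few genes of one-carbon and nucleotide metabolism passed. Of 19 one-carbon genes 1 rose (1 to 5) and 3 fell (0 to 3), and of 24 nucleotide genes 3 rose (0 to 8) and 4 fell (0 to 5). The shares called were 21.1% and 29.2%, against 37.3% of all genes. The one-carbon gene that rose was MTHFD1, a folate enzyme of the cytosol, at 269, 287 and 300.2 CPM in immortalized and 82.5, 105 and 102 CPM in primary libraries (1.57 ± 0.14, adjusted p = 0.000358). In the amino acid response list 3 of 21 rose (3 to 5) and 3 fell (2 to 6), a share called of 28.6%. INHBE, an activin subunit induced by that response, stood at 34.8, 36.4 and 40.2 CPM in immortalized and 0, 0.0442 and 0.172 CPM in primary libraries (8.90 ± 0.48), and CHAC1, which degrades glutathione, rose by 1.76 ± 0.21, while NUPR1 fell (-3.68 ± 0.63).

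Genes of the senescent secretory programme were mixed. Of 26 tested 13 fell (11 to 14) and 6 rose (5 to 8). IL6, a cytokine, stood at 2.54, 2.96 and 3.41 CPM in immortalized and 0.753, 0.486 and 0.688 CPM in primary libraries (2.22 ± 0.27, adjusted p = 0.00122). The chemokine gene CXCL3 went the other way, with 4.01, 4.62 and 4.2 CPM in immortalized and 97.7, 45.3 and 51.7 CPM in primary libraries (-3.92 ± 0.35), and GDF15 and ICAM1 fell as well (-2.59 ± 0.30 and -3.82 ± 0.34). Complement and coagulation genes fell in 11 of 17 cases (11 to 12) and rose in 4 (4 in each), with a median of -1.57. SERPING1, the C1 inhibitor, and PROCR and THBD, which anchor protein C activation, rose (4.98 ± 0.61, 2.62 ± 0.13 and 1.44 ± 0.18).

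Antigen presentation genes rose more often than they fell: 9 of 16 rose (4 to 10) and 0 fell with edgeR or limma-voom, while 1 was lower at an unadjusted p under 0.05 and with DESeq2. TAP1, which carries peptides into the endoplasmic reticulum, stood at 24.8, 22.6 and 25.2 CPM in immortalized and 4.39, 6.85 and 5.79 CPM in primary libraries (2.08 ± 0.20), and NLRC5, the activator of class I genes, and BOLA, a bovine class I gene, rose by 1.57 ± 0.26 and 1.26 ± 0.21. Class I genes have close copies that can share reads, and of the 3 entries named BOLA the one with the most counts was used. Interferon genes were split, with 6 of 25 higher (5 to 9) and 4 lower (3 to 8). IRF1 rose by 1.21 ± 0.14, while IRF7, which amplifies the response, fell to 0.929, 0.852 and 0.922 CPM in immortalized libraries, against 69.3, 25.2 and 33.4 CPM in primary ones (-5.55 ± 0.48).

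Repair of double-strand breaks held 11 genes that rose (5 to 19) and 1 that fell (0 to 1) of 36. FANCD2, of the crosslink repair pathway, stood at 87.1, 83 and 80.2 CPM in immortalized and 40.6, 43.5 and 39.1 CPM in primary libraries (1.02 ± 0.12), and XRCC2, of homologous recombination, rose by 1.11 ± 0.16. Of 27 ribosome biogenesis genes 8 rose (1 to 14) and 2 fell (0 to 4), and of 32 lamina and chromatin genes 8 rose (1 to 12) and 5 fell (4 to 7). The shares called in these 3 lists, 33.3%, 37% and 40.6%, were near the 37.3% of all genes. HMGA2, a chromatin protein of embryonic and transformed cells, stood at 8.46, 7.71 and 7.33 CPM in immortalized and 1.82, 2.21 and 1.26 CPM in primary libraries (2.14 ± 0.25).

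**Figure D4:**
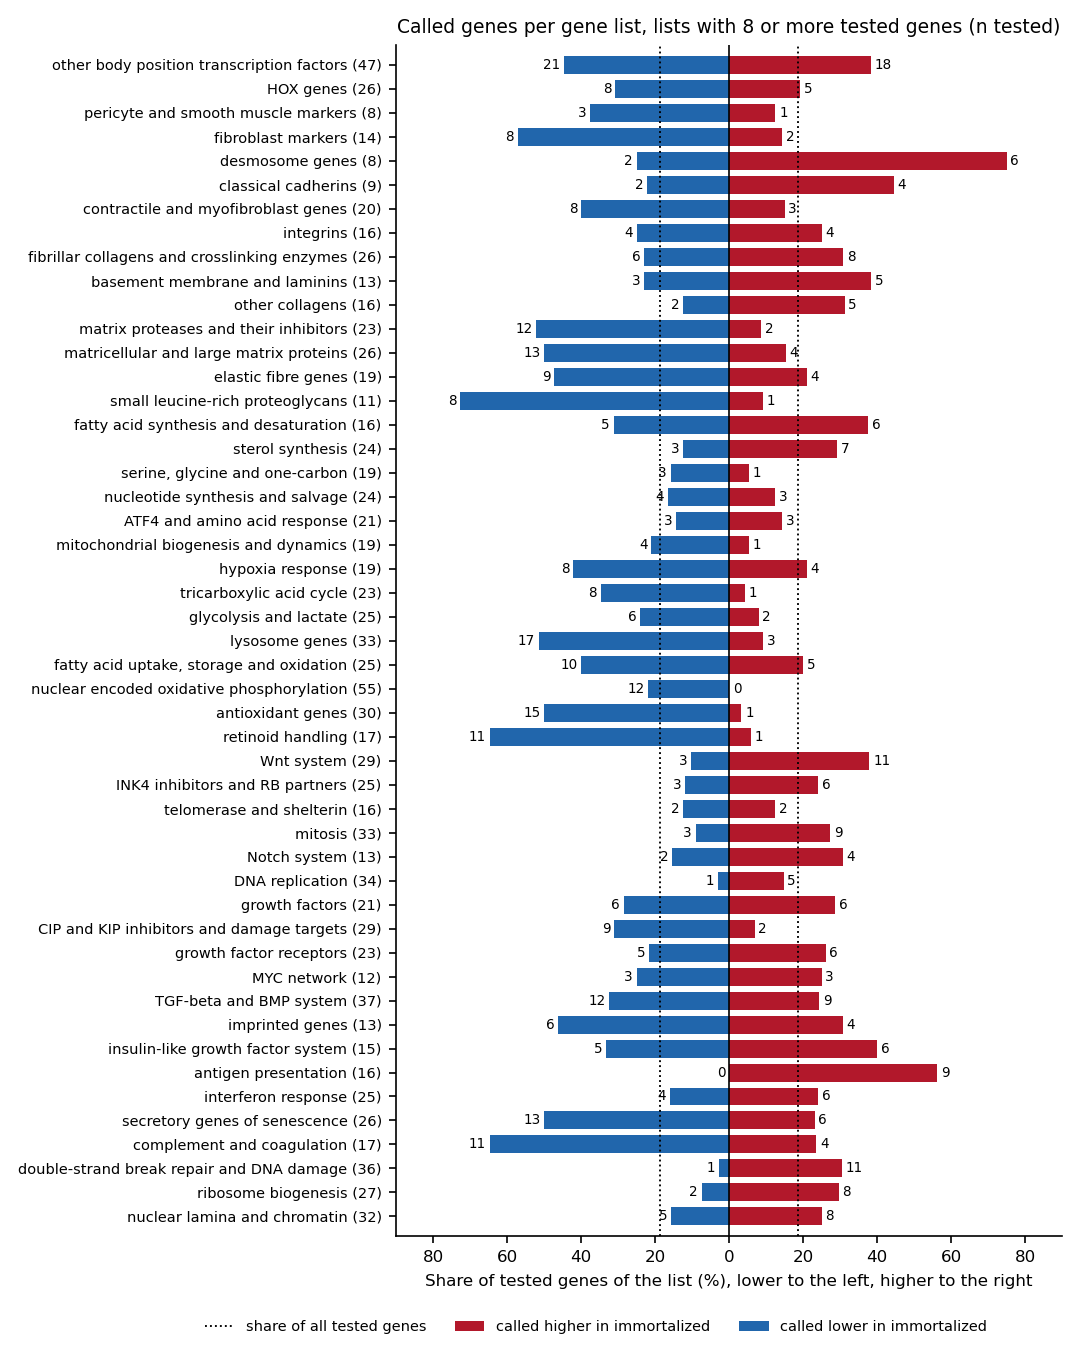
Share of the tested genes of each list with 8 or more tested genes called higher (right) or lower (left) in immortalized libraries, with the number of genes at each bar and the number tested in brackets; dotted lines mark the shares among all tested genes, 18.6% and 18.7%. Among the lists shown, desmosome and antigen presentation genes reach furthest to the right, and small leucine-rich proteoglycans, retinoid handling and complement genes furthest to the left.

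The senescent libraries show where some of these levels stood at the stage in between; no test was made. Senescent libraries 1 and 2 were nearly as alike as repeat counts of 1 library would be (a chi-square of 1.36 per gene, against 3.49 and 3.96 for the pairs with library 3), so their mean counts as 1 value and library 3 as the other. Each called gene was placed by its senescent level, the mean of these values, on a scale of log2(CPM + 0.1) between the primary and the immortalized mean. Of 2344 genes called higher in immortalized libraries, 42% had a senescent level between the ends and nearer the immortalized one, 28.1% one beyond it, 20.4% one between and nearer the primary level and 9.47% one on the far side of that. Of 2355 genes called lower these shares were 38.9%, 29.2%, 23.6% and 8.24%. These placements use the same primary and immortalized libraries as the calls and are a description. Levels below are the primary mean ± SD (n = 3), the 2 senescent values and the immortalized mean ± SD (n = 3). GATA4 stood at 0.211 ± 0.0811 CPM in primary, 42.6 and 43.3 CPM in senescent and 48.3 ± 0.766 CPM in immortalized libraries. HGF stood at 0.099 ± 0.0675 CPM in primary, 21.4 and 19.2 CPM in senescent and 22 ± 2.06 CPM in immortalized libraries. CDKN2B stood at 16.5 ± 3.38 CPM in primary, 82.1 and 80.7 CPM in senescent and 89.4 ± 2.26 CPM in immortalized libraries. In these 3 genes the senescent level was near the immortalized one. ELN stood at 38 ± 4.2 CPM in primary, 1.05 and 0.896 CPM in senescent and 0.387 ± 0.154 CPM in immortalized libraries. WISP2 stood at 728 ± 198 CPM in primary, 1.45 and 1.37 CPM in senescent and 3.05 ± 0.292 CPM in immortalized libraries, again nearer the immortalized level. DSG2 stood at 0.0695 ± 0.0166 CPM in primary, 74.4 and 67.9 CPM in senescent and 265 ± 30.4 CPM in immortalized libraries. IGFBP7 stood at 5.87 ± 1.66 CPM in primary, 192 and 196 CPM in senescent and 479.9 ± 57.1 CPM in immortalized libraries. In DSG2 and IGFBP7 the senescent libraries thus lay between both ends, nearer the primary level in CPM and nearer the immortalized one on the log2 scale. INHBE stood at 0.0721 ± 0.0894 CPM in primary, 0.389 and 0.342 CPM in senescent and 37.1 ± 2.78 CPM in immortalized libraries. RTN1 stood at no counts in primary, 1.08 and 0.64 CPM in senescent and 16.9 ± 0.582 CPM in immortalized libraries. TFAP2B stood at no counts in primary, 0.941 and 0.939 CPM in senescent and 13.1 ± 1.55 CPM in immortalized libraries, and in these 3 genes the senescent level was nearer the primary one in CPM. FGF2 stood at 55.3 ± 3.34 CPM in primary, 91.8 and 80.7 CPM in senescent and 5.23 ± 0.459 CPM in immortalized libraries. FABP4 stood at 20.3 ± 7.16 CPM in primary, 25.8 and 25.9 CPM in senescent and 0.139 ± 0.044 CPM in immortalized libraries. ADAMTS5 stood at 30.7 ± 16.9 CPM in primary, 38.6 and 37.6 CPM in senescent and 1.62 ± 0.207 CPM in immortalized libraries, so that the senescent level stood above the primary mean and the immortalized one below it. SOX9 stood at 0.0191 ± 0.0331 CPM in primary, 9.31 and 10.2 CPM in senescent and 7.76 ± 0.633 CPM in immortalized libraries.

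Median changes differed between chromosomes. The 10595 tested genes with a place in the bovine RefSeq table were grouped by chromosome, and each of the 30 groups is named by its first and last tested gene; the medians are a description with no test. The 477 genes from MCC to B2M had a median change of 0.73, with 50.9% called higher and 6.29% lower, and the 315 from MRPS24 to KLF15 had 0.59, with 44.4% higher and 6.35% lower. In the other direction, the 324 genes from PPFIA4 to CSRP1 had -0.60, with 7.1% called higher and 43.2% lower, and the 200 from UBE2D1 to PWWP2B had -0.53, with 6.5% called higher and 41% lower. The medians of the immortalized libraries 1, 2 and 3 were 0.80, 0.77 and 0.73 for MCC to B2M and -0.51, -0.53 and -0.54 for PPFIA4 to CSRP1. Each chromosome was then split at its middle gene, and the earlier and later parts had 0.49 and 0.91 for MCC to B2M, 0.70 and 0.42 for MRPS24 to KLF15, -0.55 and -0.64 for PPFIA4 to CSRP1 and -0.55 and -0.52 for UBE2D1 to PWWP2B. Without primary library 1 the 4 medians were 0.68, 0.60, -0.60 and -0.56. The senescent libraries over primary ones had 0.43 for MCC to B2M and -0.57 for UBE2D1 to PWWP2B, but 0.09 for MRPS24 to KLF15 and -0.03 for PPFIA4 to CSRP1; both ratios have the same primary libraries below the line. Of the 30 groups 8 had a median above 0.2 and 8 below -0.2.

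**Figure D5:**
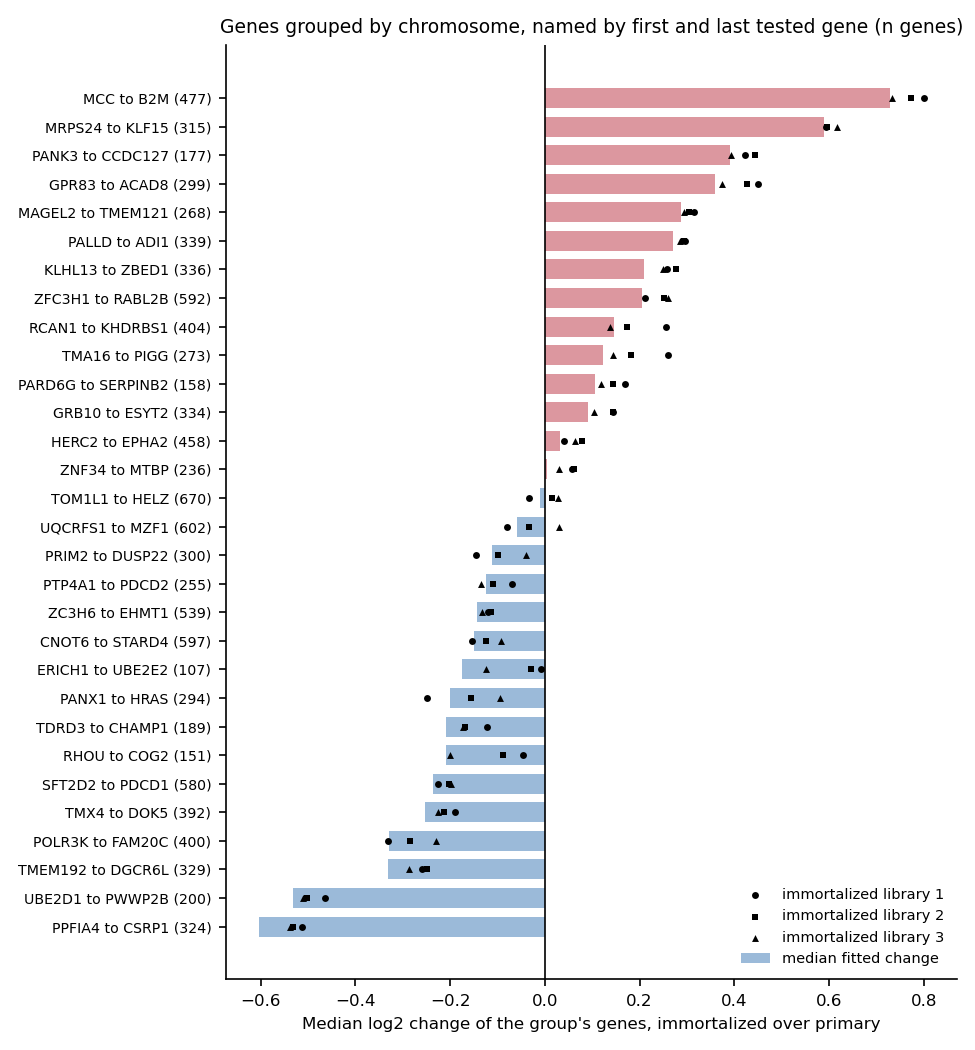
Median log2 change, immortalized over primary, of the tested genes of each chromosome (bars), and the median of each immortalized library against the primary mean (points). The 3 immortalized libraries lie near each other in the groups with the largest medians, from -0.60 for PPFIA4 to CSRP1 to 0.73 for MCC to B2M.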

How the data were processed

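RNA of 6 Simmental-like libraries, 3 immortalized and 3 primary, was compared. Per the labels, total RNA (RNeasy) was turned into libraries with a NEBNext Ultra II kit and sequenced on a NextSeq. Values in the deposited table are expected counts for Ensembl genes; by the name of the file the authors obtained them with salmon and summed them to genes. The genome build was UMD 3.1, per the submitters' processing notes. Not given in the sources used here are the salmon version, the annotation release and whether strand was used, so antisense and near-identical genes may share reads. Where a gene name occurs more than once, the entry with the most counts is given.

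Expected counts were rounded and fitted in edgeR 4.0.16 (R 4.3.3) with TMM scaling, filterByExpr by group and a robust quasi-likelihood F-test, with Benjamini-Hochberg adjustment over 12609 genes and a threshold of 0.05. Standard errors were taken as the absolute log2 change divided by the root of its F value. Where a group held only a few counts, this value can be smaller than counting error alone. The 6 libraries hold 18.2 to 23.2 M counts (M, mega); 3 counts, the limit a count of 0 allows, are 0.133 to 0.188 CPM. Intervals cover counting error only. The steps were tested on simulated data.

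The 58 gene lists (1316 of 1412 symbols in the table), the comparison and the tests were chosen with earlier results of these data known. Lists are described by counts and medians, with no list test. Named genes are the 10 per direction with the largest log2 change (at least 10 CPM in the higher group, no overlap), the 10 per direction with the largest CPM difference, up to 4 called members per direction of each list, and 10 fixed genes. Some of these genes are not reported here, and others are described by count. Sex-linked marker genes were left out. A RefSeq table of a later bovine assembly placed 84.2% of tested genes and was used only for order, chromosome groups and gene span. DESeq2 1.42.0 and limma 3.58.1 (voom) were among the alternatives. Promoter sequences were not used here. The counts of each list, and the span medians, without single libraries were added after the data were seen.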

Additional observations from a re-analysis of the deposited data

How the results depend on the processing

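The count of 4699 changed genes stayed within 1.5 times under other scalings, filters and tools (3460 with 5 CPM in 3 libraries, 5896 with DESeq2, 6607 with all 9 Simmental-like libraries), and no call changed sign in any of them. Total-count scaling gave 1531 lower genes, and a 2-fold minimum left 1607 genes, 916 higher and 691 lower. With the replicate block 2673 genes passed, 1404 higher and 1269 lower. Same-numbered libraries did not deviate together (correlations of -0.55, -0.08 and -0.17), and pairs of other numbers ran from -0.59 to 0.62. Libraries also deviated along gene length, so these correlations cannot decide whether the numbers pair them. Leaving out 1 library gave 2699 to 6884 changed, 1422 to 3455 higher and 1277 to 3429 lower genes. Of 337 named genes called, 153 lost the call in at least 1 setting and none turned.

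Of 58 list medians 16 changed sign in at least 1 setting, and the cause was not tested. Total-count scaling turned those of other position factors (0.0165), endothelial markers, with VWF (0.12), glycolysis (0.0295), hypoxia (0.20), the tricarboxylic acid cycle (0.14), mitochondrial biogenesis (0.22), CIP and KIP inhibitors and damage targets (0.22), the MYC network (0.0313), growth factor receptors (0.14) and interferon response (0.21). With no filter the medians of endothelial (0.23) and immune markers (0.93), growth factor receptors (0.43), interferon response (0.0733) and the Notch system (-0.11) turned. The stricter filter turned other collagens (-0.17), hypoxia (0.0312) and mitochondrial biogenesis (0.0535), and the fit of 9 libraries endothelial markers (0.81). Over the fits without 1 library the medians ran from -1.48 to 0.38 for immune markers, -0.25 to 0.0453 for hypoxia, -0.037 to 0.0799 for DNA replication, -0.11 to 0.31 for growth factors, -0.14 to 0.35 for the Notch system, -0.0696 to 0.19 for basement membrane genes, -0.33 to 0.19 for growth factor receptors, -0.0827 to 0.0335 for interferon response, -0.13 to 0.0019 for mitochondrial biogenesis and -0.37 to 0.0156 for the MYC network. LMNB1 ran from -0.12 to 0.28, and VWF, with the median of endothelial markers, from -0.28 to 0.0061.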
